A study of Homo sapiens with 12 samples.

Results

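The HSP70 and HSP110 chaperones and the co-chaperone BAG3 were followed in HEK293, a long-established line from human embryonic kidney, after the Mediator subunit MED12 was overexpressed or targeted by RNA interference. The members were 9 genes chosen by symbol: HSPA1L, HSPA4, HSPA4L, HSPA8, HSPA9, HSPA13, HSPA14, HSPH1 and BAG3. A gene counted as measured where a row of the array table carried its symbol and no other, and 8 of the 9 had such a row, of 22011 rows in all. The only row of HSPA9, the mitochondrial HSP70, carried a second symbol as well, so no value is given for it. Expression was read on 12 arrays, 3 biological replicates in each of 4 groups. Control cells received nuclear-localized GFP in the vector pcDNA5/TO. The full-length group received full-length MED12 with an engineered Kozak sequence and the same nuclear GFP as an N-terminal tag, in the same vector. The PQL/Opa deletion group received that construct without the C-terminal PQL and Opa domains of MED12. The shRNA group received shRNA 5, a short hairpin against endogenous MED12 driven by the H1 promoter, in a different plasmid, peGFP-C1. None of the 4 groups received a control hairpin, so the hairpin's effect and that of its vector cannot be told apart. Cells grew for 24 hours before lipofection and were collected at 48 hours after it. Live cells that showed GFP were collected by sorting, 20 minutes for each sample, and were frozen and thawed before RNA extraction. The values describe transiently transfected cells of 1 line and 1 hairpin.

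HSP70 proteins bind exposed hydrophobic stretches of unfolded client proteins and release them in a cycle driven by ATP. J-domain proteins deliver clients and start ATP hydrolysis, and nucleotide exchange factors such as the HSP110 proteins and the BAG proteins reopen the chaperone by releasing ADP. Most stress-induced members of this system are switched on by heat shock factor 1, which binds heat shock elements, inverted repeats of the unit GAA. Mediator is the coactivator complex through which such factors reach RNA polymerase II, and MED12 belongs to its kinase module.

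Sequences just upstream of the transcript starts of 3 members are shown because HSPA8 has the most letters of a heat shock element, HSPA1L has a shorter match, and HSPH1, the member with the widest range over the arrays, has none in this window. They come from RefSeq on GRCh38.p14, are written 5′ to 3′ on the strand of the gene, and end at the base before the transcript start. Capitals mark matches to GAANNTTC or TTCNNGAA (2 units, each its own reverse complement) and to the 3-unit forms, in which a further unit follows in alternation after another 2 free bases (GAA, TTC, GAA or TTC, GAA, TTC). The 3-unit forms are each other's reverse complement, so both strands were searched, and each contains 2-unit matches.
HSPA8 (chr11:123062137-123062386, minus strand): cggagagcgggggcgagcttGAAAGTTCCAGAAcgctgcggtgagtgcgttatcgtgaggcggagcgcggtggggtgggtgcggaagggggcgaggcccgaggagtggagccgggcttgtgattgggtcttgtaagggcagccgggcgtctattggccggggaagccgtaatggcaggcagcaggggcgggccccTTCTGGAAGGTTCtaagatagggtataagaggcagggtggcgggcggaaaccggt
HSPA1L (chr6:31815284-31815533, minus strand): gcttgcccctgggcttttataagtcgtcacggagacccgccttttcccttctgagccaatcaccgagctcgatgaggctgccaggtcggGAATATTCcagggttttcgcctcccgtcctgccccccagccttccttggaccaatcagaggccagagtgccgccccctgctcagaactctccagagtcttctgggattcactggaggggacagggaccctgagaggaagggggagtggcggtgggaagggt
HSPH1 (chr13:31162389-31162638, minus strand): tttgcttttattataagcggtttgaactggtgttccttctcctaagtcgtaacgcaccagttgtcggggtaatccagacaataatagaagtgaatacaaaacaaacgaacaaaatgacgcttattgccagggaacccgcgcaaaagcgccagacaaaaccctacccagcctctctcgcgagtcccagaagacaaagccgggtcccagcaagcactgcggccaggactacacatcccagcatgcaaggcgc
The table held promoters of 8 of the 9 members, HSPA14 being the other, and they were searched over 300 bases, from 250 before the start to 50 after it. HSPA8 alone among these 8 had 3-unit matches, GAAAGTTCCAGAA beginning 230 bases and TTCTGGAAGGTTC beginning 55 bases before the start. Over all 35116 promoters of the table, 0.49% held a 3-unit match. A 2-unit match stood in 4 of the members' 10 promoters, in 4 different genes, against 13.5% of all promoters. Beside HSPA8 these were HSPA1L (GAATATTC, 161 bases before the start), HSPA4L (TTCTCGAA, 170 bases before 1 of its annotated starts) and HSPA9. The upstream window of HSPA1L overlaps that of its neighbour HSPA1A, which is transcribed in the other direction in that assembly. A match is a description of letters, and binding was not measured here.

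**Figure D1:**
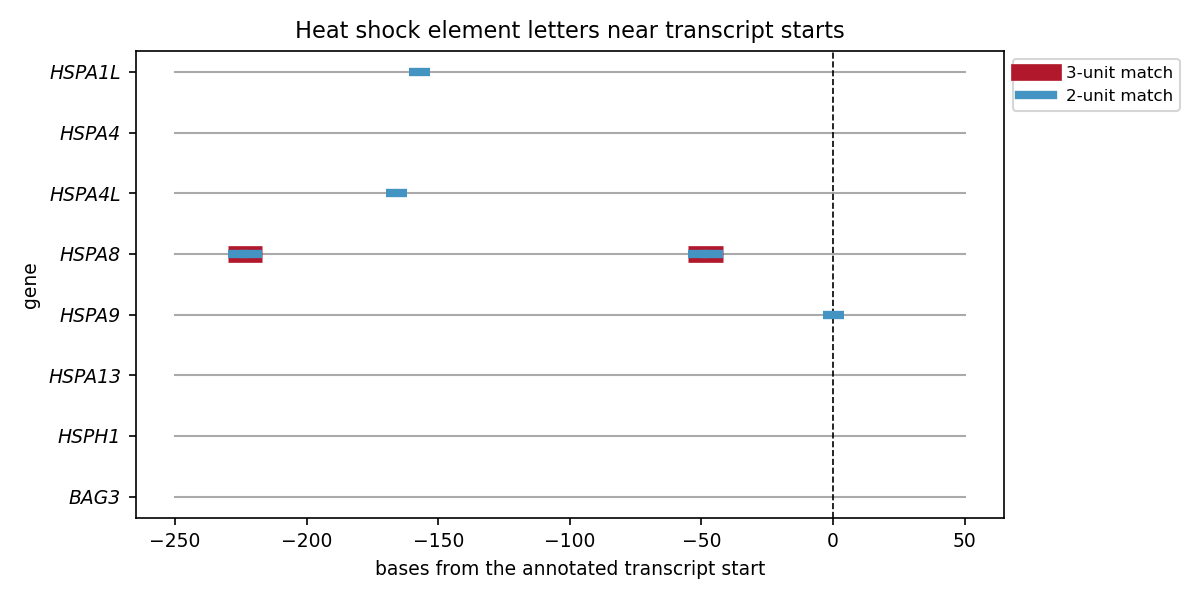
Position of matches to the 3-unit (red) and 2-unit (blue) heat shock element letters in the promoters of the 8 members found in the RefSeq table, on an axis of bases from the annotated transcript start (dashed line). HSPA4L has several annotated starts, drawn on 1 line. HSPA8 carries 2 positions with a 3-unit match, and HSPA1L, HSPA4L and HSPA9 carry 1 shorter match each.

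The deposited values are log2 expression values per row and array. Array medians lay between 3.39 and 3.51. The spread of values differed more: replicate 1 of the shRNA, of GFP and of the PQL/Opa deletion were the narrowest arrays, with standard deviations over all rows of 1.34, 1.40 and 1.45, and the other 9 had 1.47 to 1.60. The main counts and medians of the members are therefore also given without these 3 arrays. The cut falls between close values, 1.449 for PQL/Opa deletion replicate 1 and 1.465 for shRNA replicate 3, which was kept. Leaving out the 3 arrays therefore does not remove all differences in spread. The targeted gene matched the labels. MED12 was at 4.03, 4.56 and 4.66 with GFP, and from 3.63 to 3.74 in the shRNA arrays. Its log2 difference from GFP was 6.27 with full-length MED12 and 4.51 with the PQL/Opa deletion (limma, adjusted p = 3.67e-08 and 1.54e-06), and -0.75 with the hairpin (limma, adjusted p = 0.730). Of 10 measured genes chosen as HEK293 markers, 4 lay above the 75th percentile of rows (CDH2, VIM, NEFM and PAX2) and HOXC10 lay at the 21.1th percentile. Markers of fibroblasts, blood, endothelium, hepatocytes and muscle had 0 rows above the 75th percentile, and EPCAM was the 1 epithelial marker of 4 there. These arrays read RNA of many sorted cells together, so fewer expressing cells and less RNA per cell cannot be told apart.

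Across the 4 groups the members shared 1 order of means: full-length MED12 was highest and the shRNA lowest in all 8, an order held by 10.7% of all rows. For HSPA8 and HSPA4 this rests on differences close to 0: HSPA8 was 0.01 below GFP with the shRNA and above it under 5 of 19 alternatives, and HSPA4 was 0.10 above GFP with full-length MED12 and below it under 4 of 19. In 6 of the 8 the PQL/Opa deletion stood between full-length MED12 and GFP, giving the sequence full-length, PQL/Opa deletion, GFP, shRNA, which 5.8% of all rows showed. The exceptions were HSPA4 and HSPA14, where GFP was above the PQL/Opa deletion. Neighbours in this order mostly overlapped within single genes, as the values show.

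HSPH1, an HSP110 protein that acts as nucleotide exchange factor for HSP70 and holds unfolded clients, had the widest range over the 12 arrays, 2.76 on the log2 scale. With GFP its log2 values were 5.86, 6.36 and 6.34. With full-length MED12 they were 7.56, 7.39 and 7.49. The PQL/Opa deletion arrays read 6.34, 6.77 and 6.85. In the shRNA arrays it was at 4.80, 5.96 and 5.32. All full-length arrays lay above every other array, while the lowest PQL/Opa deletion array lay within the GFP range and so did 1 shRNA array. Between full-length MED12 and the shRNA the log2 difference of HSPH1 was 2.12 ± 0.27 (SE), a 4.35-fold higher level that passed over all rows (limma, adjusted p = 0.00956). Its differences from GFP were 1.30 ± 0.27 with full-length MED12, 0.47 ± 0.27 with the PQL/Opa deletion and -0.82 ± 0.27 with the shRNA, and none passed over all rows (limma, adjusted p from 0.873 to 1.00).

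HSPA4L, an HSP110 relative of HSPA4, followed HSPH1 closely. Its values were 4.10, 4.21 and 4.26 with GFP and 5.03, 5.19 and 5.05 with full-length MED12. They were 4.12, 4.60 and 4.72 with the PQL/Opa deletion and 3.22, 3.95 and 3.61 with the shRNA. Full-length arrays lay above and shRNA arrays below all 3 GFP arrays, and the PQL/Opa deletion overlapped GFP. HSPA4L was 2.82-fold higher with full-length MED12 than with the shRNA, a log2 difference of 1.49 ± 0.21 (SE; limma, adjusted p = 0.0165). Against GFP it had 0.90 with full-length MED12, 0.29 with the PQL/Opa deletion and -0.59 with the shRNA, none of which passed.

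HSPA4, the ubiquitous HSP110 protein of the cytosol, varied little beside these relatives, with a range of 0.86 over the 12 arrays. It was at 5.48, 5.92 and 5.68 with GFP, and at 5.69, 6.05 and 5.63 with full-length MED12. The PQL/Opa deletion arrays gave 5.30, 5.72 and 5.65, and the shRNA arrays 5.18, 5.62 and 5.20. All 4 groups overlapped except full-length MED12 and the shRNA. The log2 difference from GFP was 0.10 with full-length MED12 (95% interval of the fit -0.33 to 0.53) and -0.36 with the shRNA (-0.79 to 0.07). The first of these was -0.0087 without GFP replicate 1.

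HSPA1L, an HSP70 encoded beside the inducible HSPA1A and HSPA1B genes and best known from testis, separated the groups most cleanly. Its values were 3.40, 3.87 and 3.90 with GFP, 4.66, 5.04 and 4.97 with full-length MED12, 4.37, 4.04 and 4.20 with the PQL/Opa deletion, and 3.21, 2.61 and 3.23 with the shRNA. No 2 of the 4 groups overlapped. HSPA1L was the 1 member that passed the moderated F test among the 4 groups, which 0.0863% of rows passed (limma, adjusted p = 0.0223), and with the replicate number as a block it did not (limma, adjusted p = 0.0579). The F call was also lost without the 3 narrow arrays (adjusted p = 0.0759) and without any 1 of 9 single arrays (adjusted p from 0.0508 to 0.147). HSPA1L was 3.65-fold higher with full-length MED12 than with the shRNA, a log2 difference of 1.87 ± 0.21 (SE; limma, adjusted p = 0.00489). Against GFP it had 1.16 with full-length MED12, 0.48 with the PQL/Opa deletion and -0.71 with the shRNA (limma, adjusted p from 0.756 to 1.00). Its sequence is close to that of HSPA1A and HSPA1B, and whether its probes read those transcripts too is not given in the sources used here.

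HSPA8, the constitutive cytosolic HSP70 that also uncoats clathrin vesicles, had another pattern: both MED12 constructs lay above GFP, and the shRNA arrays overlapped it with nearly the same mean. The values were 8.55, 8.84 and 8.87 with GFP and 8.57, 9.03 and 8.62 with the shRNA. Full-length MED12 gave 9.49, 9.53 and 9.52, the tightest triplet of any member in any group, and the PQL/Opa deletion gave 9.30, 9.57 and 9.26. Both overexpression groups lay wholly above both other groups and overlapped each other. The log2 difference from GFP was 0.76 ± 0.17 (SE) with full-length MED12 and 0.62 ± 0.17 with the PQL/Opa deletion, neither past over all rows (limma, adjusted p = 1.00 for both). It was -0.01 with the shRNA, with a 95% interval from -0.38 to 0.36, and 0.09 after quantile normalization. Full-length MED12 and the PQL/Opa deletion differed by 0.14 (95% interval -0.23 to 0.51).

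BAG3, which binds HSP70 as a nucleotide exchange factor and links it to small heat shock proteins and selective autophagy, was at 4.23, 4.04 and 4.42 with GFP. It was at 4.90, 4.79 and 4.98 with full-length MED12, and at 4.20, 4.47 and 4.70 with the PQL/Opa deletion. The shRNA arrays read 3.79, 4.07 and 3.95. Full-length arrays lay above all others, and the other 3 groups overlapped in neighbouring pairs. Its log2 difference between full-length MED12 and the shRNA was 0.95 ± 0.17 (SE; limma, adjusted p = 0.0924), which passed after quantile normalization (0.90; limma, adjusted p = 0.0496). Against GFP it was 0.66 with full-length MED12, 0.22 with the PQL/Opa deletion and -0.29 with the shRNA.

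HSPA13 varied most within GFP (SD 0.57) and HSPA14 within the shRNA (SD 0.43). HSPA13, a microsome-associated HSP70 relative, was at 3.83, 4.38 and 4.97 with GFP, the widest GFP triplet of the members. It was at 5.11, 4.91 and 4.82 with full-length MED12, at 4.12, 4.90 and 4.50 with the PQL/Opa deletion, and at 3.73, 4.50 and 4.17 with the shRNA. GFP overlapped every other group. HSPA14, which sits on the ribosome with the J-domain protein DNAJC2, was at 4.20, 4.31 and 4.32 with GFP and 4.41, 4.40 and 4.35 with full-length MED12. It was at 4.08, 4.41 and 4.26 with the PQL/Opa deletion and at 3.63, 4.43 and 3.75 with the shRNA, where 1 array was the highest and 2 were the lowest of all 12. The log2 differences of HSPA13 from GFP were 0.55, 0.11 and -0.26, and those of HSPA14 were 0.11, -0.03 and -0.34, in the order full-length, PQL/Opa deletion, shRNA. The second HSPA13 value was -0.17 without GFP replicate 1 and -0.08 without PQL/Opa deletion replicate 2, and the third was 0.03 without GFP replicate 3.

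**Figure D2:**
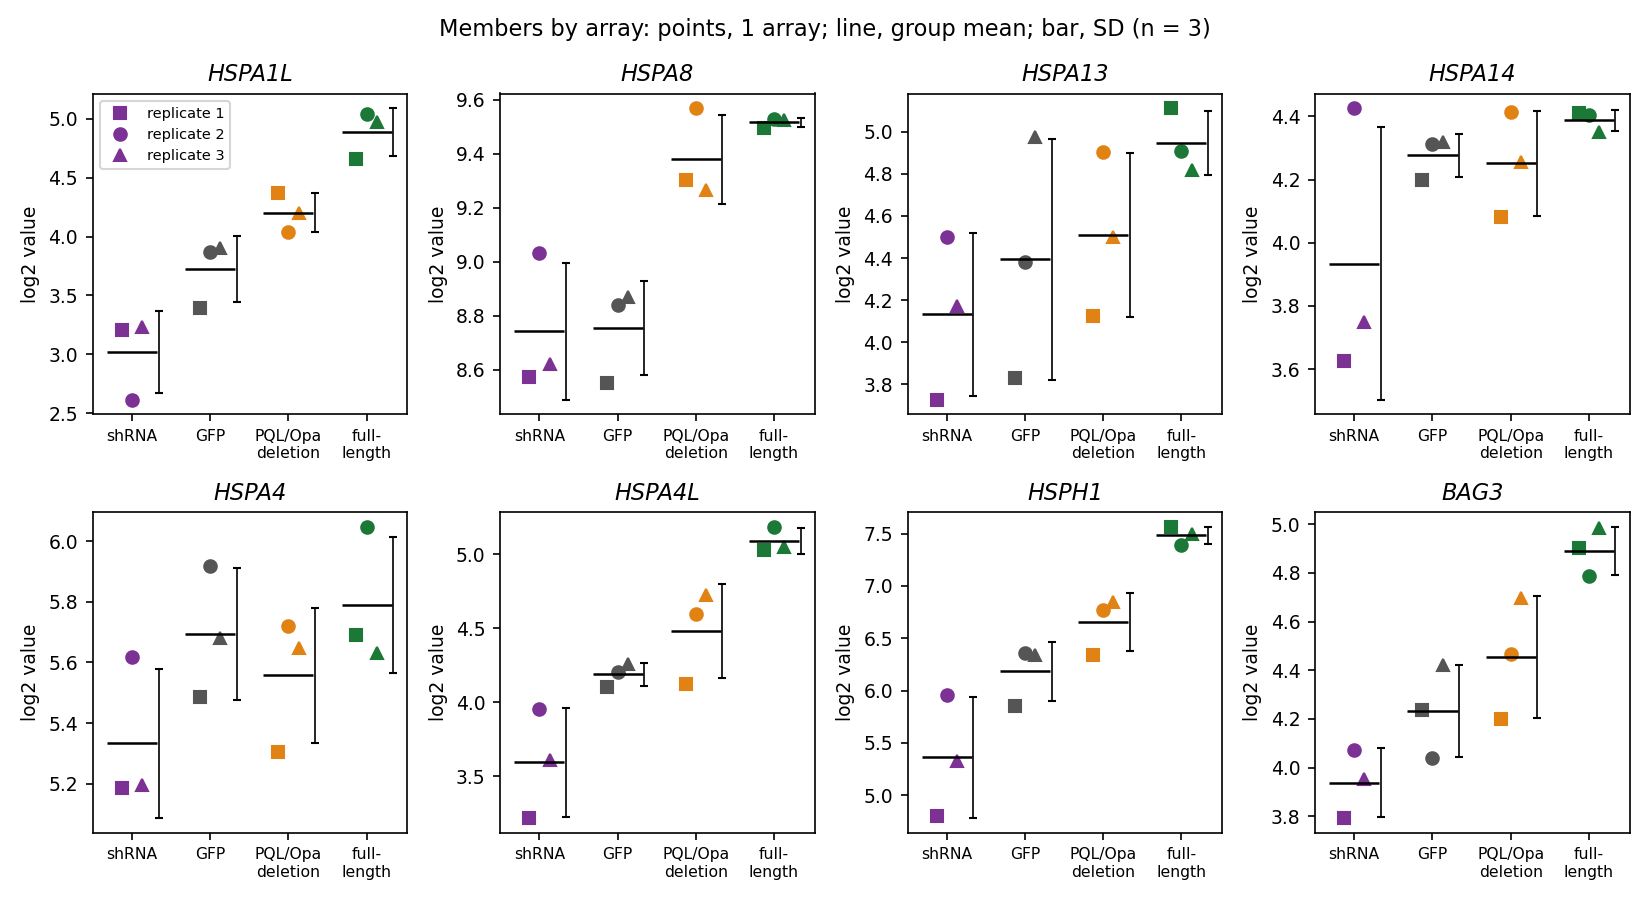
Log2 value (vertical axis, a separate scale in each panel) of the 8 measured members in the 4 groups; each point is 1 array, its shape the replicate number, the line the group mean and the bar the SD (n = 3). Full-length arrays of HSPH1, HSPA4L, HSPA1L and BAG3 sit above all other arrays, and the HSPA8 panel shows both MED12 constructs above GFP and the shRNA.

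Read together, the comparison of full-length MED12 with GFP had all 8 members above 0, as had 48.6% of rows, with a median log2 difference of 0.71 against -0.01 over all rows. None of the 8 passed the adjusted threshold (0 with limma), where 0.0136% of rows passed as higher. At an unadjusted p under 0.05 there were 5 of 8 members higher, HSPA1L, HSPH1, HSPA8, HSPA4L and BAG3, against 1.44% of all rows. Their p-values ranked 5, 9, 14, 20 and 35 among the 22011 rows. The full-length and GFP arrays did not overlap in 6 members, against 4.03% of rows higher without overlap. The sixth was HSPA14, whose log2 difference was 0.11. Without the 3 narrow arrays 7 of 8 members were above 0 (HSPA4 at -0.0087), the median was 0.66 and 5 members had an unadjusted p under 0.05, when 4.17% of rows did in either direction.

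For the PQL/Opa deletion against GFP the median of the members was 0.26 (all rows -0.01), with 6 of 8 above 0, as were 48.4% of rows. Over all rows 0 of 8 members passed (limma), where 0.00454% of rows passed as higher. HSPA8 and HSPA1L were the 2 members with an unadjusted p under 0.05, against 1.75% of rows on the higher side, and the same pair did not overlap with GFP, against 4.13% of rows. Without the 3 narrow arrays HSPA1L had 0.23 in place of 0.48, and the pair at an unadjusted p under 0.05 was HSPA8 (0.56) and HSPA4L (0.43), with a median of 0.29 over the members. The median was 0.15 without PQL/Opa deletion replicate 3, and the count at an unadjusted p under 0.05 fell to 1 without GFP replicate 1, PQL/Opa deletion replicate 3, or full-length replicate 2 or 3. The direct comparison of the constructs had a median of 0.44 for full-length minus PQL/Opa deletion, with all 8 members above 0, as were 49.7% of rows. In it 4 members, HSPA1L (0.68), HSPH1 (0.83), HSPA4L (0.61) and BAG3 (0.44), had an unadjusted p under 0.05 and arrays that did not overlap, against 1.11% and 3.81% of rows. Without the 3 narrow arrays BAG3 (0.31) was no longer among them and the median was 0.28. Without PQL/Opa deletion replicate 1 alone the median was also 0.28 and the count at an unadjusted p under 0.05 was 2. None of the 8 passed over all rows (limma), where 0.00454% of rows passed as higher. The 95% intervals of the fit ran from 0.22 to 1.15 for HSPA1L and from 0.24 to 1.42 for HSPH1. MED12 itself was higher by 1.76 with full-length MED12 than with the PQL/Opa deletion (limma, adjusted p = 0.0421). That call was lost without any 1 of 9 arrays (limma, adjusted p from 0.0509 to 0.365). The constructs thus differ in MED12 signal as well as in the deleted domains, and the parts of these cannot be told apart. Whether probes of the MED12 row lie in the deleted stretch is not given in the sources used here. The lower signal therefore cannot be read as a lower level of the deletion construct.

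With the shRNA against GFP all 8 members were below 0, as were 45.6% of rows, with a median of -0.35 against 0.02 over all rows. Again 0 of the 8 met the adjusted threshold (limma), where 0.00909% of rows passed as lower. At an unadjusted p under 0.05 there were 3 lower members, HSPA1L, HSPH1 and HSPA4L, against 2.58% of rows, and in 2 of them, HSPA1L and HSPA4L, the groups did not overlap, against 3.85% of rows. The narrow arrays stood low in these groups: shRNA replicate 1 was the lowest shRNA array in 7 of the 8 members, and GFP replicate 1 the lowest GFP array in 7 of 8. Without the 3 narrow arrays the same 3 members had an unadjusted p under 0.05 and the median was -0.37, with log2 differences of -0.96 for HSPA1L, -0.71 for HSPH1 and -0.45 for HSPA4L. The count of 3 was 2 without shRNA replicate 1 and 5 without shRNA replicate 2.

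Between the most distant groups, full-length MED12 and the shRNA, 3 of the 8 members were higher with full-length MED12 past the adjusted threshold (limma): HSPH1, HSPA1L and HSPA4L. Of all rows 0.0591%, which is 13 rows, passed as higher in this comparison. All 8 members had an unadjusted p under 0.05, against 4.22% of rows higher, and 7 did not overlap, against 5.98%, HSPA14 being the exception. The count of 8 was 6 without the 3 narrow arrays (HSPA4 and HSPA14 leaving), 6 in a fit of these 2 groups alone and 5 without shRNA replicate 1. The members' median was 0.88 (0.78 without the narrow arrays), against -0.04 over all rows, of which 43.9% were above 0. The HSPA1L call held in 18 of 19 alternatives and was lost in a fit of these 2 groups alone (limma, adjusted p = 0.0988). HSPH1 lost its call in that fit (adjusted p = 0.150) and without any 1 full-length array or shRNA replicate 3 (log2 differences 2.08 to 2.16, adjusted p from 0.0559 to 0.0762). HSPA4L lost it in the fit of 2 groups (adjusted p = 0.174) and without any 1 full-length array, shRNA replicate 1 or shRNA replicate 3 (1.31 to 1.52, adjusted p from 0.0511 to 0.129). Without the 3 narrow arrays all 3 calls stood, at 1.84 for HSPH1, 1.96 for HSPA1L and 1.31 for HSPA4L. The full-length and shRNA groups differ in plasmid as well as in insert, and both differ from GFP, so this comparison sets 2 treatments against each other and not a treatment against the control.

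**Figure D3:**
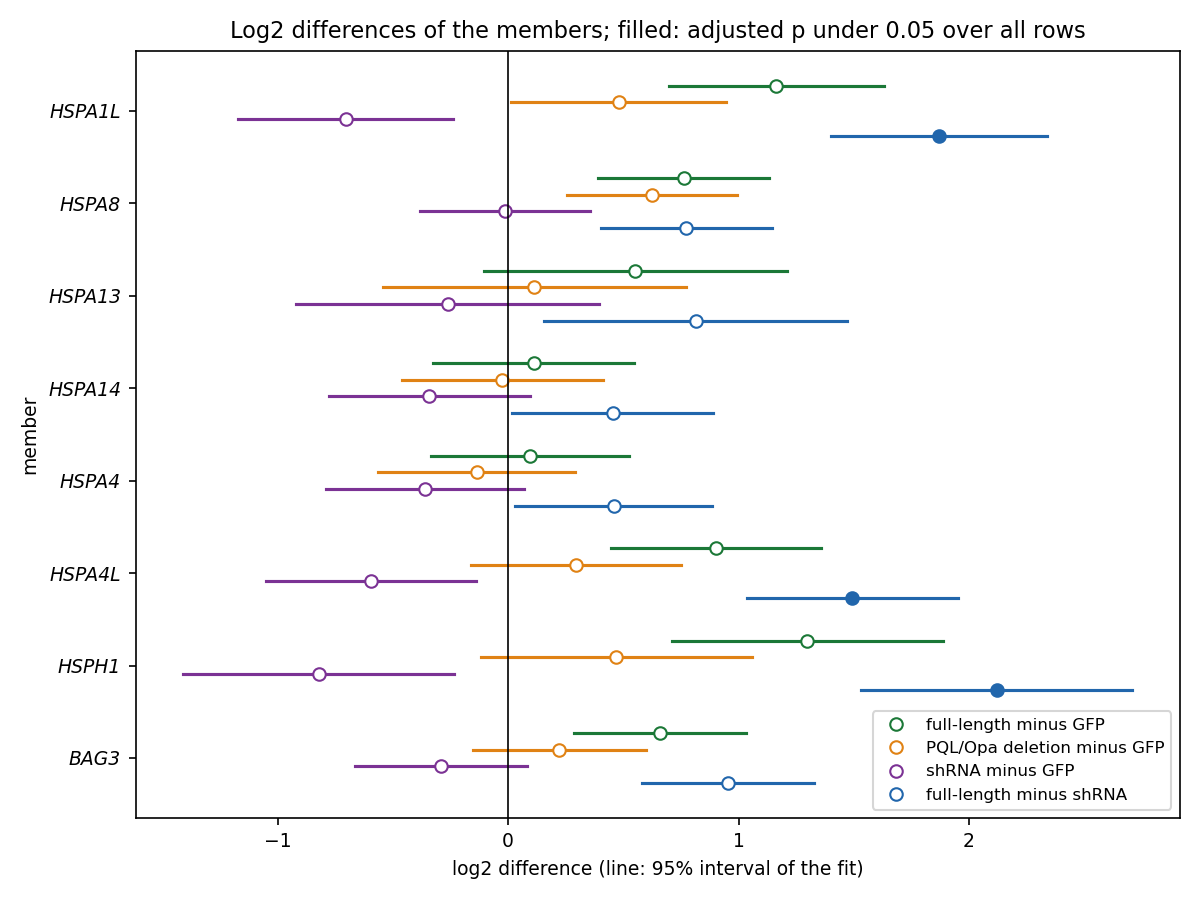
Log2 differences (horizontal axis) of the 8 members in the 3 comparisons with GFP and between full-length MED12 and the shRNA; lines are 95% intervals of the fit and filled points passed at an adjusted p under 0.05 over all rows. Filled points occur for HSPA1L, HSPA4L and HSPH1 between full-length MED12 and the shRNA, and every point with GFP is open.

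The members did not move as 1 block. Over the 12 arrays the Pearson correlation of log2 values, which share arrays and their spread, had a median of 0.78 over the 28 pairs of members. The highest was 0.986 for HSPH1 with HSPA4L, followed by 0.953 for HSPA4L and 0.939 for HSPH1 with BAG3. The lowest was 0.43 for HSPA1L with HSPA14. After each group's mean was taken from its arrays, HSPH1 and HSPA4L still had 0.887, and HSPH1 and HSPA14 had 0.886. HSPA1L then ran against the other 7 members, from -0.65 with HSPA14 to -0.13 with HSPA13. The shRNA arrays show it: replicate 2 was the highest of the 3 in the other 7 members and the lowest for HSPA1L. That array also had the widest spread of the 3 over all rows (SD 1.60, against 1.34 and 1.47). HSPA1L lay below the array median in each shRNA array. The part of array spread in the correlations within groups was not tested. HSPA4 and HSPA14 had 0.838 on the deposited values and 0.439 after quantile normalization.

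**Figure D4:**
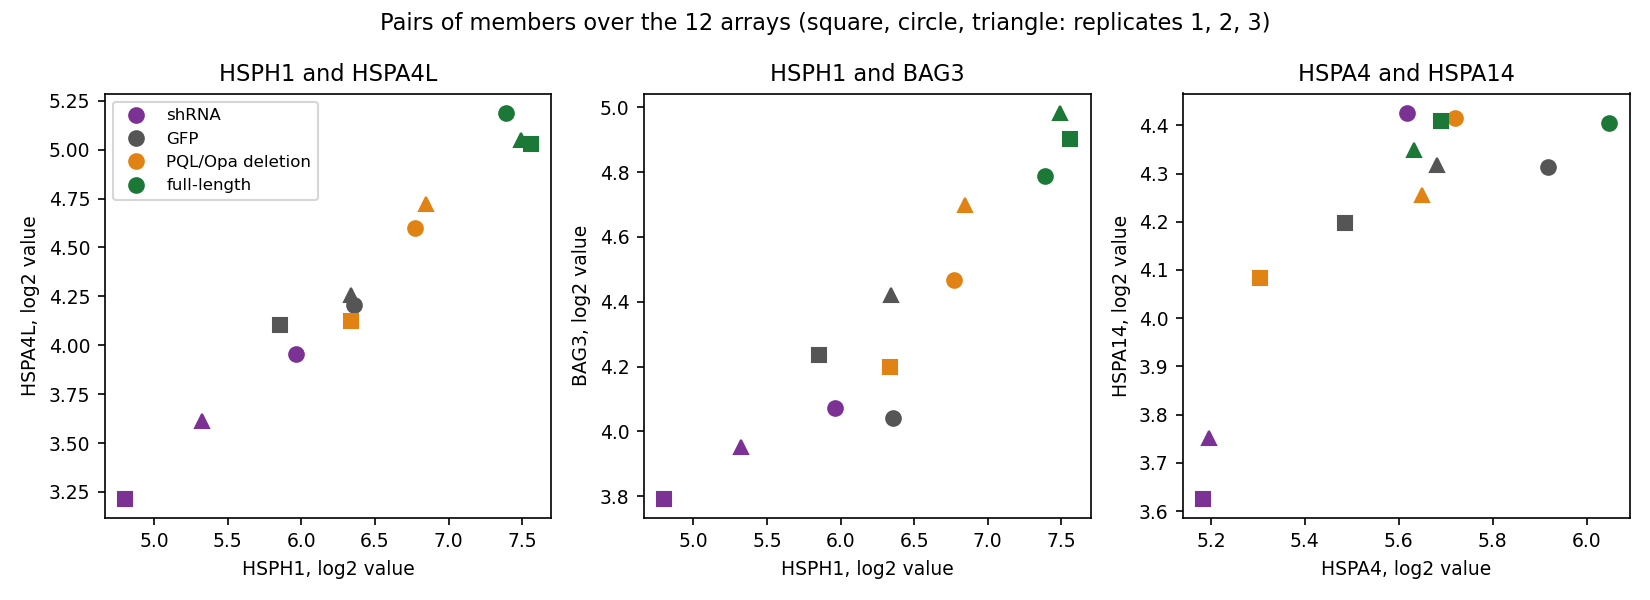
Log2 values of HSPH1 against HSPA4L, HSPH1 against BAG3 and HSPA4 against HSPA14 over the 12 arrays, coloured by group. The correlations are 0.986, 0.939 and 0.838. In the first 2 panels the group means rise from shRNA through GFP and the PQL/Opa deletion to full-length MED12, while single arrays of some neighbouring groups overlap.

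Spread within groups also differed. The median SD of the members was 0.09 with full-length MED12, 0.20 with GFP, 0.24 with the PQL/Opa deletion and 0.36 with the shRNA (n = 3 each). Over all rows it was 0.19, 0.26, 0.25 and 0.29 in the same order. GFP, the PQL/Opa deletion and the shRNA each hold 1 of the 3 narrow arrays, and the full-length group holds none. That array was the lowest of its group in 7, 6 and 7 of the 8 members. The part of the narrow arrays in these SDs was not tested.

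Among 14424 other rows of 1 symbol, the 3 most like HSPH1 over the 12 arrays were DNAJB1 (r = 0.961), MRPL18 (0.951) and ZFAND2A (0.935). The same 3 genes were the most like HSPA4L, with 0.958, 0.952 and 0.950. MED12 itself was the row most like HSPA1L (0.907) and most like HSPA8 (0.926). It was followed by TENT5C and TRMT10A (0.899 each) for HSPA1L, and by UBB (0.919) and CHMP2A (0.918) for HSPA8. After quantile normalization MED12 was the third closest for both, DNAJB1 stayed the closest to HSPH1 and HSPA4L, ZFAND2A ranked 4 for HSPH1 and 5 for HSPA4L, and MRPL18 ranked 2 and 7. These are descriptions over 12 arrays that fall into 4 groups. In the overexpression groups the MED12 row reads the transfected constructs. Its means were 10.68 with full-length MED12, 8.92 with the PQL/Opa deletion, 4.41 with GFP and 3.67 with the shRNA. The members compared here were those of smallest F test p, so a likeness to rows that separate the groups was favoured by that choice.

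Of 9 other HSP70 genes 5 had a row of their own, HSPA2, HSPA5, HSPA12A, HSPA12B and HYOU1, and 0 of them passed in any of the 5 comparisons (limma; 0 at an unadjusted p under 0.05). The other 4 genes were read only in rows that carry 2 symbols, whose values belong to neither gene alone, and these rows were called. The row of HSPA6 and HSPA7, a strictly stress-induced HSP70 and its near-identical copy, was at 4.35, 4.67 and 4.35 with GFP, 6.86, 6.94 and 6.69 with full-length MED12, 5.61, 5.46 and 5.40 with the PQL/Opa deletion and 3.61, 3.16 and 3.25 with the shRNA, with no overlap among the groups. It rose by 2.37 with full-length MED12 (limma, adjusted p = 0.000131), a call kept in all 19 alternatives. It fell by 1.11 with the shRNA (limma, adjusted p = 0.0448), a call kept in 6 of 19. HSPA1A and HSPA1B, the main stress-induced HSP70 genes, share 2 rows that differ. The brighter was at 9.56, 9.81 and 9.46 with GFP and 9.87, 9.74 and 9.51 with full-length MED12, which overlapped, and at 9.43, 9.07 and 9.27 with the PQL/Opa deletion. With the shRNA it was at 7.93, 8.31 and 8.41, below all others, and fell by 1.39 from GFP (limma, adjusted p = 0.0166; kept in 13 of 19 alternatives, and 0.111 without the 3 narrow arrays). The dimmer row had log2 differences from GFP of 1.06, 0.96 and -0.87 with full-length MED12, the PQL/Opa deletion and the shRNA, none past the adjusted threshold. Between full-length MED12 and the shRNA all 3 rows passed, with 3.49, 1.49 and 1.93 (limma, adjusted p = 1.82e-06, 0.00858 and 0.00400). The first call was kept in all 19 alternatives. The brighter row of HSPA1A and HSPA1B kept its call in 16 of 19. It was lost in a fit of these 2 groups alone and without full-length replicate 1 or 2 (limma, adjusted p up to 0.150). The dimmer row lost its call only in the fit of 2 groups (limma, adjusted p = 0.0570). The calls of these rows were singled out after their values were seen. The row that HSPA9 shares with SNORD63 had log2 differences from GFP of -0.03 with full-length MED12, -0.21 with the PQL/Opa deletion and -0.53 with the shRNA. Its mean was highest with GFP (6.60, against 6.57 with full-length MED12). Between full-length MED12 and the shRNA it differed by 0.49 (limma, adjusted p = 0.701). None of these passed, and of the alternatives only array weights called it, lower with the shRNA than with GFP.

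Among the 5 genes read alone, HSPA5, the HSP70 of the endoplasmic reticulum, had a log2 difference from GFP of 0.30 with full-length MED12, with overlapping arrays. Of 14 measured nucleotide exchange factors and adaptors, 0 passed in any comparison (limma). Against GFP, an unadjusted p under 0.05 was reached by BAG4 with the PQL/Opa deletion (0.38), against 1.75% of all rows higher. On the lower side GRPEL2, an exchange factor of mitochondria, reached it with the shRNA (-0.58), against 2.58% of all rows lower. Between full-length MED12 and the shRNA 4 of the 14 reached it on the higher side, against 4.22% of all rows. These were BAG5 (0.99), GRPEL2 (0.65), BAG4 (0.45) and GRPEL1 (0.40). Of 11 measured genes listed as BAG3 partners or selective autophagy genes, 0 passed in any comparison (limma). UBQLN2, a ubiquitin receptor, was the 1 gene at an unadjusted p under 0.05 (0.36 with full-length MED12, against 1.44% of all rows higher). Its arrays lay above all GFP arrays in every other group, with 0.24 for the PQL/Opa deletion and 0.26 for the shRNA. Of 7 measured clathrin and iron-sulfur cluster genes, clients or partners of HSPA8 and HSPA9, 0 passed (limma). CLTB had 0.44 at an unadjusted p under 0.05 with the PQL/Opa deletion, against 1.75% of all rows higher.

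Of 14 measured J-domain partners, 11 were above 0 with full-length MED12 against GFP, as were 48.6% of all rows. With the shRNA 11 were below 0, as were 45.6% of all rows. The medians were 0.04 and -0.19 (all rows -0.01 and 0.02), and 0 passed in either (limma). At an unadjusted p under 0.05 there were 2 higher with full-length MED12 (1.44% of rows) and 2 lower with the shRNA (2.58% of rows). In both comparisons these were DNAJB1 and DNAJB4, both stress-linked partners of cytosolic HSP70. DNAJB1 was at 3.41, 3.88 and 3.86 with GFP, 5.59, 5.86 and 6.35 with full-length MED12, 3.90, 4.52 and 4.63 with the PQL/Opa deletion and 2.64, 3.65 and 2.77 with the shRNA. Its log2 difference between full-length MED12 and GFP was 2.22 ± 0.30 (SE; limma, adjusted p = 0.0664, and 0.0160 with the replicate number as a block). Both genes were higher with full-length MED12 than with the shRNA (2.91 and 1.45; limma, adjusted p = 0.00400 for DNAJB1 and 0.0496 for DNAJB4). They were singled out there after their values were seen. The DNAJB4 call was lost without any 1 of 10 arrays (adjusted p from 0.0555 to 0.276) and without the 3 narrow arrays (limma, adjusted p = 0.152). In a fit of the full-length and shRNA groups alone both calls were lost (limma, adjusted p = 0.0833 for DNAJB1 and 0.263 for DNAJB4).

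A list of other genes held heat shock factor 1 (HSF1) itself and genes that it induces, DNAJB1 among them, and 13 were measured. Of these, 10 were above 0 with full-length MED12, with a median of 0.58. With the PQL/Opa deletion 9 were above 0, with a median of 0.11, and with the shRNA 10 were below 0, with a median of -0.15. Over all rows the medians were -0.01, -0.01 and 0.02, and 48.6%, 48.4% and 45.6% of rows had these signs. None of the 13 passed against GFP (limma). At an unadjusted p under 0.05 there were 5 higher with full-length MED12 (1.44% of rows), 2 higher and 1 lower with the PQL/Opa deletion (1.75% of rows higher) and 3 lower with the shRNA (2.58% of rows). ZFAND2A, a stress-induced zinc finger gene that works at the proteasome, had 0.98 with full-length MED12, 0.73 with the PQL/Opa deletion and -0.78 with the shRNA. Between full-length MED12 and the shRNA it differed by 1.76 (limma, adjusted p = 0.00400), a call singled out after its values were seen. That call was lost in a fit of these 2 groups alone (limma, adjusted p = 0.0988). HSP90AA1, the inducible cytosolic HSP90 that takes clients from HSP70, had 0.07 with full-length MED12, -0.51 with the PQL/Opa deletion and -0.49 with the shRNA. In both of the latter its arrays lay below all GFP arrays.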

How the data were processed

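Amplified RNA of 12 sorted HEK293 samples was read on 1-colour arrays after biotin labelling. The authors deposited 1 log2 value for each transcript cluster and array. Partek, RMA and genome build hg18 are named in the submitters' processing notes; their versions and filters were not found in the labels. All value columns were used (0 left out), unchanged. Symbols came from the platform annotation: 14432 rows had 1 symbol, 2408 several and 5171 none. RefSeq held the Entrez identifiers of 14404 rows, and 0 symbols changed.

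Means of the 4 groups were fitted jointly by limma 3.58.1 (R 4.3.3; eBayes with a constant prior, 8 residual and 3.52 prior degrees of freedom), two-sided. P-values were adjusted by Benjamini and Hochberg's method over 22011 rows, with 0.05 as the threshold, and the fit was tested on simulated data. With 12 arrays, a log2 difference had a median standard error of 0.23. The labels call the samples biological replicates. Arrays of the same number deviated together for full-length MED12 with GFP (correlations 0.101, 0.218 and 0.229) and for the PQL/Opa deletion with GFP (0.149, 0.378 and 0.472). For the shRNA with GFP the correlations were 0.464, 0.269 and 0.022. Any pairing by number was thus read from the data alone, and arrays of unlike number were not compared. The main fit held no replicate block, which served only as an alternative. Members, gene lists and alternatives were chosen with earlier results of these data known. Named genes are the members, MED12, up to 2 genes of smallest p per list, direction and comparison with GFP, and the 3 rows most correlated with each of the 4 members of smallest F test p. Alternatives were quantile normalization, a filter on low rows, a trended robust prior, fits of 2 groups, the replicate block, array weights, no narrow arrays, and leaving out each array.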

Additional observations from a re-analysis of the deposited data

Results flagged for a closer look

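In 3 members the responses to full-length MED12 and to the shRNA, both set against GFP, differed by a test of the difference itself. The log2 difference of full-length MED12 minus shRNA was 2.12 for HSPH1 (means 7.48 and 5.36), 1.87 for HSPA1L (4.89 and 3.02) and 1.49 for HSPA4L (5.09 and 3.59), each higher in 3 of 3 full-length arrays. The shRNA came in another plasmid than the constructs, and its part in these differences cannot be told apart from that of the hairpin. Groups of 3 arrays were too small to test for a single outlying sample.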

How the results depend on the processing

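Against GFP no measured member passed under any alternative but array weights. With array weights HSPH1 passed with full-length MED12 (limma, adjusted p = 0.0439), and HSPA1L, HSPA4, HSPA4L, HSPA14 and HSPH1 passed with the shRNA. These weights gave shRNA replicate 3 a weight of 8.77 and called 5702 rows for the shRNA against GFP (15 without weights), 3383 for full-length MED12 against the shRNA (23), 6360 in the F test (19), 20 for the PQL/Opa deletion against GFP (1), 6 for full-length MED12 against GFP (3) and 4 for full-length MED12 against the PQL/Opa deletion (1). After quantile normalization these counts were 23 for the shRNA against GFP, 37 for full-length MED12 against the shRNA and 2 between the constructs. In fits of 2 groups alone they were 4 for the shRNA against GFP and 2 for full-length MED12 against the shRNA. With the replicate number as a block they were 2 for the PQL/Opa deletion against GFP and 38 for full-length MED12 against the shRNA; beyond DNAJB1 against GFP the block changed a call in the F test, lost for HSPA1L and gained for HSPH1 (adjusted p = 0.0403) and HSPA4L (adjusted p = 0.0486), and no call of a member in the 5 comparisons. Between the constructs the count was 2 with a filter on low rows, 0 with a trended robust prior (limma; 426 at an unadjusted p under 0.05) and 0 without the 3 narrow arrays (951), when 8 rows passed the F test. Leaving out 1 array gave 5 to 20 rows for the shRNA against GFP (5 without GFP replicate 2, 8 without GFP replicate 3), 9 to 39 for full-length MED12 against the shRNA (9, 10, 39 and 10 without full-length replicates 1 and 2 and shRNA replicates 2 and 3), 0 to 3 between the constructs (limma; 322 to 523 at an unadjusted p under 0.05 over the 12 fits) and 5 to 18 in the F test (5 without shRNA replicate 3).

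The members' median differences kept their sign. Over the fits that left out 1 array they ran from 0.66 to 0.83 for full-length MED12, 0.15 to 0.37 for the PQL/Opa deletion and -0.51 to -0.25 for the shRNA against GFP. For full-length MED12 they ran from 0.28 to 0.52 against the PQL/Opa deletion and from 0.78 to 1.01 against the shRNA. Signs turned for 4 members. HSPA4 with full-length MED12 was -0.073 with array weights, -0.0087 without the 3 narrow arrays, and -0.033 to 0.21 with 1 array left out (-0.0087 without GFP replicate 1). HSPA14 with the PQL/Opa deletion was 0.022 with array weights, 0.019 without the narrow arrays and -0.11 to 0.059 with 1 array left out. HSPA13 ran from -0.17 to 0.40 with the PQL/Opa deletion (-0.083 without PQL/Opa deletion replicate 2) and from -0.55 to 0.028 with the shRNA. HSPA8 with the shRNA was 0.094 after quantile normalization and -0.16 to 0.073 with 1 array left out (0.031, 0.045 and 0.048 without GFP replicate 2, GFP replicate 3 and shRNA replicate 3). The cause of these changes was not tested.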
